A study of Mus musculus with 4 samples.

Results

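MHC class II-high macrophages are the macrophages of these tumors with the largest share of their transcripts on 3 chains of the class II antigen-presenting molecules, H2-Aa, H2-Ab1 and H2-Eb1. A cell counted as a macrophage when it had at least 500 detected genes, at most 10% of its unique molecular identifiers (UMIs, each standing for 1 captured transcript) on mitochondrial genes, at least 1 Csf1r UMI, at least 0.2% of UMIs on the C1q genes C1qa, C1qb and C1qc, at most 2 UMIs of Cd3d, Cd3e and Cd3g and at most 1 UMI of Ncr1 and Klrb1c. Of 28290 barcodes deposited as cells, 14139 were macrophages by this rule, and the 10% of them with the largest share on the 3 chains, 1414 cells, were the MHC class II-high macrophages. The remaining 12725 are called other macrophages here. The levels of the 3 chains chose these cells, so they are given below as a description.

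The cells came from MC38 tumors, a transplantable mouse colon carcinoma, grown under the skin of hCTLA-4 mice, which carry human CTLA-4 on a C57BL/6 background, so that all groups share the transgene and the tumor line. Per the labels, treatment into the peritoneum began at tumors of about 100 mm3, 3 treatments were given, and on day 8 the tumors of 11 mice a group were pooled into 1 library. The isotype control library received a human IgG1 at 10 mg/kg. The combination library received ipilimumab, a human IgG1 against human CTLA-4, at 10 mg/kg with AT130-2, an antibody against mouse FcγRII whose Fc part carries a mutation that silences it, at 20 mg/kg. The remaining 2 libraries received 1 of the antibodies each. Title and treatment field contradict each other in both of them. The library titled anti-human CTLA-4 is called single antibody A and the library titled anti-mouse FcγRII single antibody B, and the antibody that each received could not be settled. The article describes fewer and smaller tumors, lower doses and an earlier harvest. The article gives an age for the wild-type mice it used and ties none to the hCTLA-4 mice. Live CD45+ cells were sorted, fixed and hybridized with gene-specific probes, so that a level is the sum over a gene's probes and is compared between cells and not between genes.

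MHC class II molecules carry peptides from engulfed material to the surface of antigen-presenting cells, where CD4+ T cells read them. Their chains are assembled in the endoplasmic reticulum with the invariant chain, cut free of it in endosomes by cathepsins, and loaded with peptide by H2-DM, which H2-O holds back. Transcription of the class II chains, the invariant chain and H2-DM depends on the transactivator CIITA, which interferon gamma induces in macrophages, and on a complex of RFX, NF-Y and CREB proteins that sits on a shared promoter element. In tumors, class II-high and class II-low macrophages are a common way to order macrophages that derive from monocytes.

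The libraries held 178178393, 129151823, 142472286 and 196362818 UMIs in the order isotype control, single antibody A, single antibody B and combination, which is the order of every set of 4 values below. The 8173, 6390, 6097 and 7630 barcodes held 3825, 3146, 3985 and 3183 macrophages, of which 427, 434, 163 and 390 were MHC class II-high. There was 1 library per group, so no replicate error exists, no test between groups was made, and group and library cannot be told apart. The 95% intervals given cover counting error alone. They are exact binomial for shares, log intervals for ratios of shares and exact conditional intervals for ratios of UMI sums.

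MHC class II-high macrophages were scarcest with single antibody B. Of the macrophages of isotype control 11.2% (10.2% to 12.2%) belonged to them. Single antibody A had 13.8% (12.6% to 15.05%), the combination 12.3% (11.1% to 13.4%) and single antibody B 4.09% (3.50% to 4.75%). The share with single antibody B was 0.366 times that in isotype control (0.308 to 0.436), and the shares with single antibody A and in the combination were 1.24 (1.09 to 1.40) and 1.10 times (0.965 to 1.25). Against single antibody A the combination stood at 0.888 times (0.782 to 1.01) and against single antibody B at 3.00 times (2.51 to 3.57). The ratio for single antibody A was 1.07 without the cells that carried a UMI of a dendritic cell marker. Over the whole macrophage population the median share of UMIs on the 3 chains was 0.801, 1.03, 0.0949 and 1.36%, so that the low share with single antibody B was not limited to the cells near the limit. Macrophages without a single UMI of the 3 chains made up 4.13, 2.70, 10.5 and 0.943% of macrophages.

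The limit cut through a continuous range. It lay at 3.53% of a cell's UMIs, between the last cell inside at 3.52874% and the nearest cell outside at 3.52864%, and 295 cells inside and 350 cells outside lay within 0.25 percentage points of it. The fifth cell inside stood at 3.53162% and the fifth outside at 3.5238%, and the highest cell reached 10.4%.

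**Figure D1:**
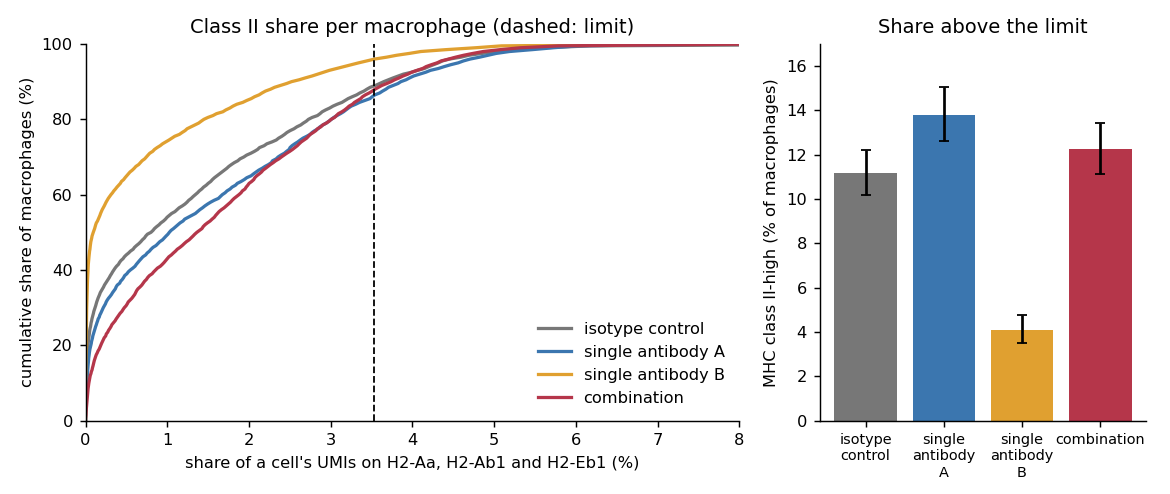
Left, cumulative share of macrophages (%) against the share of a cell's UMIs on H2-Aa, H2-Ab1 and H2-Eb1 (%, axis ended at 8%), 1 line per library, with the limit of 3.53% dashed. Right, MHC class II-high macrophages as a percentage of macrophages, with exact binomial intervals; the bar of single antibody B, at 4.09%, lies below the other libraries, and its line on the left lies above the others.

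The MHC class II-high macrophages were shallower than other macrophages, with a median of 14075, 18491, 15644 and 20742 UMIs against 18065, 22085, 21206 and 24770, and with 4305, 4832, 4545 and 4920 against 4938, 5318, 5260.5 and 5496 detected genes. Levels were therefore taken per 1000000 UMIs (CPM) of the summed cells, and shares of cells were taken at 1 depth. The C1q genes, which the macrophage rule used, held a median of 1.49, 1.77, 1.303 and 1.43% of UMIs in MHC class II-high and 1.48, 1.64, 1.56 and 1.44% in other macrophages. Where the rule had not fixed it the label held in the data, since Ciita stood higher in these cells and the macrophage markers were present. Adgre1, which encodes F4/80, reached 395, 504, 390.4 and 402 CPM in MHC class II-high and 511, 521, 557 and 446 CPM in other macrophages, and Mertk, an engulfment receptor, 94.1, 121, 98.4 and 163 and 114, 126, 125 and 139 CPM. Of 11 macrophage markers none was 1.5-fold apart in all 4 libraries, and their median ratio was 0.824, 0.889, 0.701 and 0.897, which passed 1 in the combination when samples were scaled by the median of ratios. No full barcode was shared between libraries, each library had 1 probe barcode, and between 712 and 1148 droplet barcodes were shared by any pair of libraries that had been loaded together. Of the MHC class II-high macrophages, 153, 171, 53 and 125 sat in such shared droplets. Without them 77 genes were counted as higher and 316 as lower by the rules below, 66 and 291 of them shared with all cells, and 117 as higher and 56 as lower in the combination, 94 and 44 of them shared.

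The 3 chains that chose the cells were at nearly equal levels in the MHC class II-high macrophages of the 4 libraries and unequal in the rest. H2-Aa stood at 14691, 14457, 14528 and 13884 CPM against 3349.5, 3703, 1958 and 4236 CPM in other macrophages, H2-Ab1 at 12879, 13152, 12475 and 13285 against 2891, 3318, 1704 and 4059 CPM, and H2-Eb1 at 16019.6, 16342, 15507 and 15549.7 against 3305, 3806, 1852 and 4147 CPM. In other macrophages single antibody B was lowest and the combination highest for each chain. H2-Aa lies on chromosome 17 from 34282744 to 34287823, H2-Ab1 from 34257689 to 34269419 and H2-Eb1 from 34305867 to 34316674 (GRCm38). When the cells were chosen on a random part of each cell's UMIs and the levels were read from the rest, H2-Aa was 4.33, 3.89, 7.28 and 3.24 times as high as in other macrophages.

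A gene was counted as higher in MHC class II-high macrophages when its CPM was at least 1.5-fold above that of other macrophages of the same library in each of the 4 libraries, and as lower when it was at least 1.5-fold below in each. Of 8478 genes with a mean of at least 10 CPM, the 3 chains left out, 80 were higher (0.944%) and 323 lower (3.81%). All genes together had a median ratio of 0.940, 0.922, 0.923 and 0.908, and scaling by the median of ratios instead shifted the median log2 ratio by 0.12 and gave 147 higher and 249 lower genes, which moved the higher genes from 19.9% to 37.1% of those counted. The 80 higher genes and 249 of the lower genes were counted under both scalings. By library alone, 2.57%, 2.59%, 4.73% and 1.40% of the tested genes were at least 1.5-fold higher and 7.4%, 8.91%, 10.9% and 7.2% at least 1.5-fold lower. Lists of genes by role are described below by these counts and by the median ratio of their members that passed the minimum.

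The machinery of class II loading was higher with the chains. Of 6 genes for the invariant chain and the loading proteins, 5 passed the minimum and all 5 were higher, with a median ratio of 2.69, 2.46, 3.99 and 2.06. Cd74, the invariant chain, stood at 32500.1, 33988, 30491 and 33692 CPM against 8951, 10405, 5351 and 12629 CPM, a ratio of 3.63 (3.61 to 3.65), 3.27 (3.25 to 3.28), 5.70 (5.66 to 5.74) and 2.67 (2.66 to 2.68). Every library's MHC class II-high macrophages lay above the other macrophages of every library, and the ratio was largest with single antibody B, where the other macrophages had least. H2-DMa and H2-DMb1, which form the peptide exchanger H2-DM, stood at 838, 816, 809.9 and 618 against 361, 387, 276 and 361 CPM and at 335, 309.6, 352 and 263 against 125, 126, 88.2 and 127 CPM. Both were lowest in the combination among MHC class II-high macrophages. H2-DMb2 and H2-Ob, whose product is part of the H2-DM inhibitor H2-O, had ratios of 2.82, 2.81, 5.18 and 2.42 and 2.13, 2.31, 2.54 and 2.01, and H2-Oa, below the minimum, 3.95, 4.55, 6.73 and 4.01. Reads of H2-DMb1 and H2-DMb2, which are close copies, may be split between them by the probes.

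Among regulators the transactivator stood furthest above other macrophages. Ciita stood at 539.6, 502, 461 and 379.5 CPM in MHC class II-high macrophages and 128, 128, 71.8 and 144 CPM in other macrophages, a ratio of 4.201 (4.04 to 4.37), 3.91 (3.77 to 4.06), 6.41 (6.04 to 6.81) and 2.63 (2.53 to 2.74). The groups did not overlap, and the combination had the lowest level among MHC class II-high and the highest among other macrophages. Of 9 regulators that passed the minimum, Ciita was the 1 that was higher, and the median ratio of the 9 was 1.00, 1.04, 1.09 and 1.04. Rfx5, the DNA-binding RFX subunit, followed at 1.55, 1.66, 1.88 and 1.38 and missed the fold limit in the combination. Rfxap, Rfxank, the NF-Y genes Nfya, Nfyb and Nfyc, and Creb1 had ratios between 0.737 and 1.21. March1, a ubiquitin ligase that takes class II molecules off the surface, had ratios of 1.33 to 1.54.

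The endosomal proteases went apart. Ctss, which encodes the cathepsin that cuts the invariant chain in antigen-presenting cells, stood at 9384, 10487, 9499 and 10525 against 7154, 7508, 7265 and 8472 CPM, and Ifi30, a thiol reductase that opens antigens, at 1725, 1673, 1658 and 1684 against 1219.9, 1224, 1146 and 1377 CPM. Both were above other macrophages in each library, by less than 1.5-fold. Ctsl, which encodes cathepsin L, was the only gene of the 5 to be counted, and it was lower, at 239, 222, 248 and 321 against 417, 486, 417 and 631 CPM. Ctsb and Lgmn, also lysosomal proteases, had ratios of 0.568, 0.661, 0.490 and 0.898 and 0.695, 0.858, 0.687 and 0.832.

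**Figure D2:**
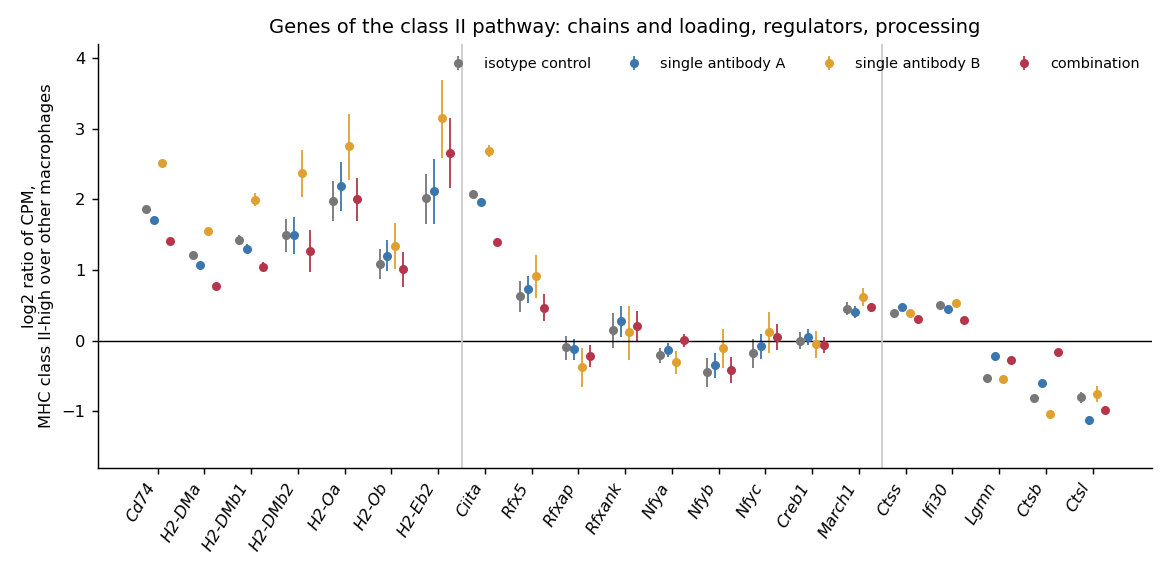
Log2 ratio of CPM, MHC class II-high over other macrophages of the same library, for genes of the class II pathway by role (chains and loading, regulators, processing), 1 point per library with 95% counting intervals that are smaller than the points for abundant genes. Cd74 (2.67 to 5.70-fold) and Ciita (2.63 to 6.41-fold) lie well above 0, while the RFX, NF-Y and CREB genes other than Rfx5 lie near it.

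Class II genes are known for a shared promoter element, which is shown here beside the level of Ciita because CIITA acts through it. RefSeq promoters (GRCm38.p6, from 250 bases before to 50 after the start) were searched on both strands for the Y box letters TGATTGG, to which NF-Y binds, and for AACNNATG, the most alike letters of the X box, which RFX binds. The letters were chosen from these promoters, the motifs do not overlap, and the windows below have AACNNATG and TGATTGG in capitals, 5′ to 3′ on the gene's strand.
H2-Aa, chr17:34287857-34287918, minus strand: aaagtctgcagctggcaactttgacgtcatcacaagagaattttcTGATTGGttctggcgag
H2-Eb1, chr17:34305761-34305822, plus strand: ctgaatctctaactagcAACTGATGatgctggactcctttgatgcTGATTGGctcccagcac
H2-DMb1, chr17:34153083-34153144, plus strand: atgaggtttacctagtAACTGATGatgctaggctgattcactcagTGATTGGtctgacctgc
H2-DMb2, chr17:34145112-34145173, plus strand: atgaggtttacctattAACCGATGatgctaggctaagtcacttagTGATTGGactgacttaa
H2-Ob, chr17:34238801-34238862, plus strand: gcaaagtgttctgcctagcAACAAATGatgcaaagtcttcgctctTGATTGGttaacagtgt
The Y box lay 50, 61, 63, 92 and 59 bases before the start in these genes. In H2-Aa the X box letters were not in the window. In H2-Eb1, H2-DMb1, H2-DMb2 and H2-Ob they lay 20, 21, 21 and 18 bases before the Y box. H2-Oa had the Y box and H2-Eb2 had both. The promoters of H2-DMa had no Y box on the gene's strand, and the X box letters were not read there. Of 32851 promoters of this length 7.82% held the Y box, 8.86% the X box letters and 0.0548%, 18 promoters, the X box letters followed by the Y box on the same strand at a distance of 10 to 40 bases. Of the 80 higher genes 57 had a promoter in the table, and 3 of these, H2-DMb1, H2-DMb2 and H2-Ob, held the pair (5.26%), and 6 of 6865 tested genes with a promoter did (0.0874%). Because the letters came from promoters of this family, these shares are a description. Promoters of H2-Ab1, Cd74 and Ciita were not used here.

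Of the ligands for T cells, PD-L2 stood furthest above other macrophages. Of 9 genes for B7, TNF-family and checkpoint ligands that passed the minimum, Pdcd1lg2, which encodes PD-L2, was higher, none was lower, and the median ratio was 1.22, 1.31, 1.65 and 1.32. Of the 9, 7, 7, 6 and 6 had a ratio above 1. Pdcd1lg2 stood at 61.7, 76.4, 40.3 and 229 CPM against 14.1, 21.1, 5.81 and 67.1 CPM, with ratios of 4.38 (3.89 to 4.92), 3.63 (3.30 to 3.98), 6.93 (5.62 to 8.50) and 3.41 (3.24 to 3.59). The other macrophages of the combination, at 67.1 CPM, were above the MHC class II-high macrophages of isotype control and single antibody B and below those of single antibody A, so the groups overlapped across libraries but not within one. Cd86, which encodes the B7-2 ligand of CD28 and CTLA-4, had ratios of 1.57, 1.54, 2.24 and 1.44, and Cd80, which encodes B7-1, 1.39, 1.31, 2.74 and 1.32. Cd40 stood at 1.27, 1.499, 1.65 and 1.32 times and Cd274, which encodes PD-L1, at 1.14, 1.05, 1.93 and 1.44 times the level of other macrophages. Tnfsf4 and Cd70 had no UMI in MHC class II-high macrophages.

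Genes of the interferon gamma receptor, its signalling and its response had a median above 1 in each library, lowest in the combination. Of 22 such genes that passed, only Gbp2b was counted as higher, but the median ratio was 1.60, 1.59, 2.18 and 1.18. Cxcl9, a chemokine that draws CXCR3-bearing T cells, stood at 1927, 3240.3, 2185 and 2949 CPM against 697, 1307, 647 and 1984 CPM. The ratio fell just short of 1.5-fold in the combination, at 1.49, where other macrophages already had as much as MHC class II-high macrophages of isotype control. Irf1, a transcription factor of the pathway, had ratios of 1.52, 1.56, 2.15 and 1.18. Cxcl10 went against the list in 2 libraries, with 0.766, 1.00, 1.59 and 0.724. Gbp2b, a guanylate-binding protein, had ratios of 7.59, 4.404, 6.60 and 4.11. The guanylate-binding proteins and the interferon-inducible GTPases are close copies of one another, and their counts may be shared.

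Class I presentation genes stood above other macrophages in their median and none was counted. All 11 were measured, none was 1.5-fold higher in all 4 libraries, and the median ratio was 1.32, 1.29, 1.499 and 1.18. Nlrc5, the class I counterpart of CIITA, had the widest ratios, 1.47, 1.62, 1.83 and 1.29, and B2m 1.18, 1.16, 1.25 and 1.16. Genes induced by type I interferon went the other way in 3 libraries, with a median ratio of 0.790, 0.782, 1.16 and 0.803 over 12 genes, none of them counted. Rsad2, an antiviral enzyme, was at 0.347, 0.441, 1.00 and 0.514 times and Ifi44 at 1.78, 1.68, 2.14 and 1.29 times the level of other macrophages.

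Complement genes were split. C3, the central complement protein, Cfb, the protease of its alternative pathway, and C4b were higher, 3 of 7 genes. C3 stood at 571, 835, 607 and 1981 against 229, 339, 168 and 961 CPM. The receptor genes C3ar1 and C5ar1 stood below other macrophages, at 0.789, 0.762, 0.725 and 0.736 and 0.686, 0.580, 0.644 and 0.686 times their level. Of the Fc receptors, which the αFcγRII antibody concerns, none of 5 genes was counted, with a median ratio of 1.15, 1.09, 1.21 and 1.04. Fcgr4, which encodes the activating receptor FcγRIV, came nearest at 2.07, 2.05, 2.25 and 1.19, and its level was 1059, 1469, 1007 and 906 CPM in MHC class II-high macrophages against 511, 718, 448 and 760.3 CPM. In the combination it was near that of other macrophages. Fcgr2b, the inhibitory receptor FcγRIIB, had ratios of 1.303, 1.07, 1.21 and 1.08, and Fcgr1, Fcgr3 and the shared chain Fcer1g lay between 0.883 and 1.23.

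The named higher genes beyond the lists were the 12 with the largest ratio in the library where it was smallest. Apart from Ccl17, Pdcd1lg2, Gbp2b, Clec9a and Kmo they were Dnase1l3, Adgrg5, Hepacam2, Dcstamp, Klrb1b, Ocstamp and Il1r2. Dnase1l3, a secreted DNase that clears DNA of dying cells, stood at 145, 264, 73.2 and 235 CPM against 18.6, 45.2, 11.2 and 50.5 CPM. Klrb1b, an inhibitory lectin receptor, stood at 362, 372, 409.7 and 269 against 57.8, 78.0, 36.2 and 76.7 CPM and had a UMI in 64.6%, 66.8%, 66.9% and 67.9% of the cells, unthinned. Il1r2, the decoy receptor of interleukin-1, had ratios of 6.15, 3.34, 18.1 and 3.20. Dcstamp and Ocstamp, transmembrane proteins needed for macrophage fusion, had ratios of 4.54, 4.35, 10.3 and 4.30 and 4.56, 4.00, 5.91 and 3.28, and Adgrg5, an adhesion receptor, and Hepacam2 5.36, 5.33, 10.6 and 4.402 and 7.16, 5.69, 13.7 and 4.35. Dcstamp had UMIs in 8.43%, 8.29%, 14.7% and 12.1% of the cells, of which 5 cells held 37.9%, 34.5%, 55.7% and 49.9%, and Ocstamp in 17.3%, 18.4%, 15.3% and 11.5%, of which 5 cells held 23.9%, 16.2%, 39.2% and 55.9%. Without cells that had a dendritic marker UMI, Hepacam2, Dcstamp and Ocstamp kept ratios of at least 1.5 in each library and were no longer counted because their mean level, 9.89, 9.45 and 9.02 CPM, was under the minimum of 10 CPM. With all cells, Hepacam2, Dcstamp, Ocstamp and Ccl17 lay under 10 CPM in other macrophages of each library. They passed the minimum only through MHC class II-high macrophages, so their counts are a description.

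Genes of cell division and of resident-like macrophages were among the lower genes. Of 11 cell cycle genes that passed, all 11 were lower, with a median ratio of 0.331, 0.377, 0.263 and 0.279. Mki67, which encodes the proliferation antigen Ki-67, stood at 79.7, 82.4, 63.7 and 52.9 CPM against 270.1, 237, 266 and 191 CPM, and Top2a, a topoisomerase of dividing cells, at 71.5, 74.9, 53.2 and 49.3 against 223, 224, 215 and 194 CPM. For both genes every library's MHC class II-high macrophages lay below the other macrophages of every library. Hmmr and Pbk, also genes of dividing cells, were among the 12 named lower genes, with ratios of 0.253, 0.247, 0.0814 and 0.116 and 0.265, 0.258, 0.173 and 0.234.

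Of 9 resident-like genes that passed, 8 were lower, with a median ratio of 0.319, 0.270, 0.150 and 0.355. Folr2, a folate receptor of tissue-resident macrophages, stood at 26.5, 47.3, 32.6 and 37.7 CPM against 127, 175, 217 and 154 CPM. Cbr2, a carbonyl reductase, stood at 14.1, 13.9, 19.6 and 8.10 against 89.4, 122, 221 and 54.5 CPM, and Pf4, a platelet-type chemokine that macrophages also make, at 35.0, 38.1, 25.2 and 54.2 against 222, 305, 186 and 239 CPM. F13a1, which encodes coagulation factor XIII A, had ratios of 0.169, 0.135, 0.0987 and 0.179. For these 4 genes the groups did not overlap, and the ratio of F13a1, Cbr2 and Folr2 was smallest with single antibody B. Mrc1, the mannose receptor, was lower by less, at 0.638, 0.573, 0.516 and 0.583. Selenop was not counted, at 0.885, 1.01, 0.741 and 0.855. Lyve1 had no UMI in MHC class II-high macrophages. Other named lower genes were Mt2, a metallothionein, at 0.161, 0.102, 0.131 and 0.151, Emp1 at 0.233, 0.205, 0.187 and 0.268, Ctla2a at 0.131, 0.130, 0.0805 and 0.126, Angptl2 at 0.177, 0.183, 0.143 and 0.0769 and Cspg4, the proteoglycan NG2, at 0.177, 0.256, 0.0475 and 0.162.

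The genes of Spp1 and hypoxia and those of oxidative stress and lipid were lower outside the combination and near the level of other macrophages within it. Their median ratios were 0.494, 0.424, 0.480 and 0.937 over 10 genes and 0.586, 0.510, 0.592 and 0.921 over 11, beside 0.940, 0.922, 0.923 and 0.908 for all genes. Under median-of-ratios scaling both medians passed 1 in the combination, at 1.05 and 1.03. Spp1, which encodes osteopontin, was lower in all libraries, at 237, 157, 264 and 171 against 1048, 891, 1599 and 873 CPM. Adam8, a membrane protease, and Gpnmb, a lysosomal glycoprotein, were the other genes counted as lower in these lists. Hmox1, which encodes heme oxygenase-1, showed the contrast most clearly, with 230.2, 409.5, 185 and 1480.4 CPM in MHC class II-high and 1147, 1708, 1347 and 1607 CPM in other macrophages. The ratio was 0.201 (0.191 to 0.211), 0.240 (0.232 to 0.248), 0.137 (0.126 to 0.149) and 0.921 (0.905 to 0.938). Slc2a1, a glucose transporter, had ratios of 0.468, 0.440, 0.544 and 0.974, Hilpda, a lipid droplet protein, 0.205, 0.226, 0.193 and 0.773, and Mmp12, the macrophage elastase, 0.393, 0.590, 0.324 and 1.07. In each the combination stood highest.

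**Figure D3:**
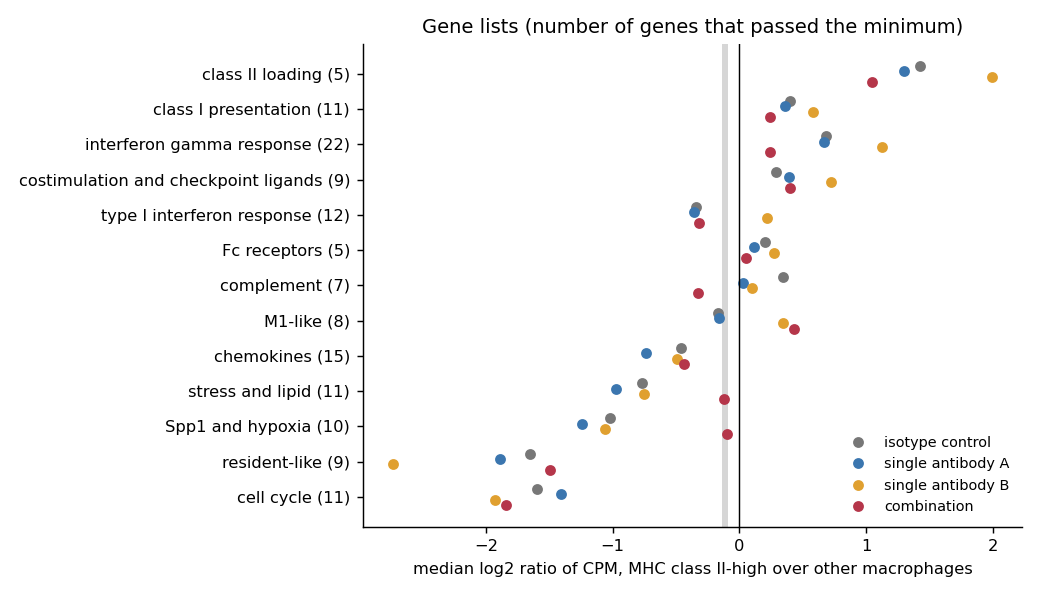
Median log2 ratio of CPM, MHC class II-high over other macrophages, for 13 gene lists, with the number of genes that passed the minimum in brackets and 1 point per library; the grey band spans the medians over all genes. Class II loading lies at the right and resident-like and cell cycle genes at the left in each library, while the hypoxia and stress lists lie left of the band in 3 libraries and at it in the combination (medians of 0.937 and 0.921).

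Inflammatory M1-like genes had no common direction, with median ratios of 0.892, 0.895, 1.27 and 1.35 over 8 genes and none counted. Il1b, which encodes interleukin-1 beta, was above other macrophages in each library, at 2.12, 1.8, 3.17 and 1.48, and missed the limit in the combination. Nos2, the inducible nitric oxide synthase, was at 0.749, 0.923, 2.13 and 1.55. Of 15 chemokines, Ccl5 and Ccl17 were higher and Ccl2, Ccl7 and Ccl12 lower. Ccl2, the main ligand of the monocyte receptor CCR2, stood at 111, 138, 104 and 115 against 298, 481, 306 and 463 CPM, and Ccl5, a chemokine that draws T cells, at 828, 1199, 680.4 and 3327 against 244, 386, 173 and 1181 CPM. Ccr2 itself, which marks recently arrived monocytes, had ratios of 1.801, 1.82, 1.89 and 1.04 and missed the limit in the combination. Other monocyte genes were lower, 4 of 8 with Chil3, Fn1 and Ace among them, with a median ratio of 0.587, 0.399, 0.727 and 0.558 over the 8.

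All macrophages were ordered by class II share into 10 equal parts over the pooled libraries, of which the tenth is the MHC class II-high set, and 14 genes were read in them. Ccr2 stood at 314.5 CPM in the lowest and 1099 CPM in the highest part in isotype control, and was least in the second part, at 279 CPM. In the combination it stood at 110.2 and 231 CPM in these parts, was nearly flat from the sixth part on and was highest in the seventh, at 263 CPM. Hmox1 stood at 1626 CPM in the lowest and 230.2 CPM in the highest part in isotype control and at 932 and 1480.4 CPM in the combination, where the lowest part had the least. Nos2 stood at 209.9 and 1269.8 CPM in these parts of the combination and did not exceed 181 CPM in any part of isotype control.

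**Figure D4:**
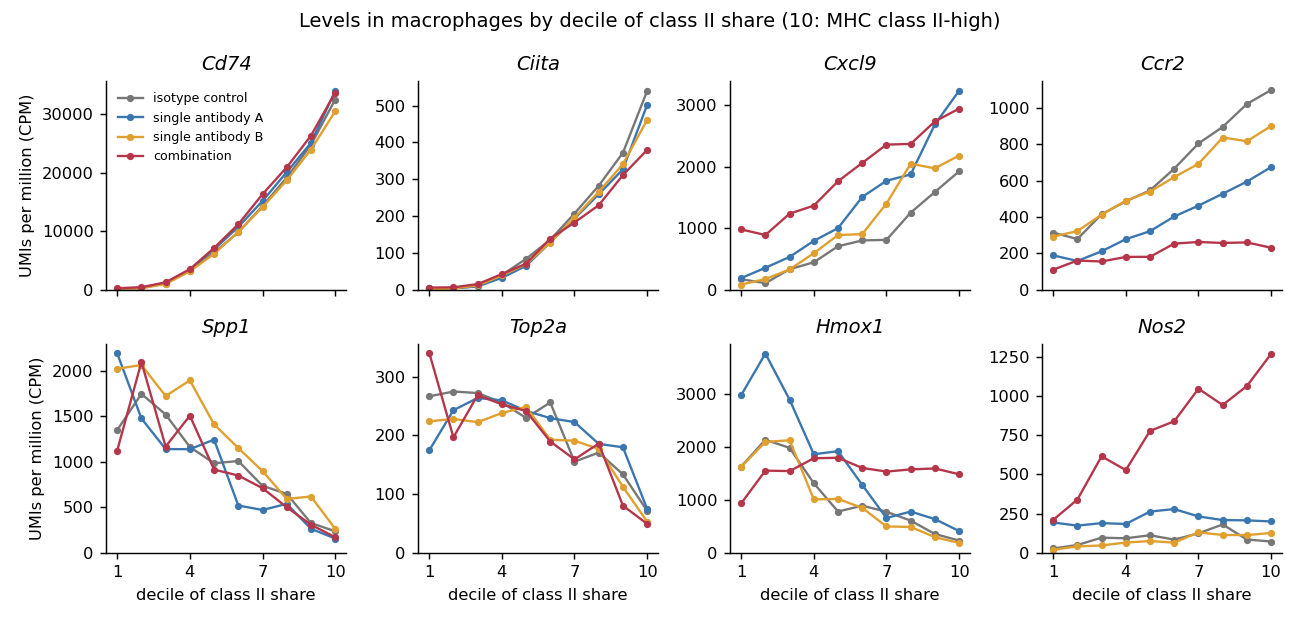
Levels (CPM, linear axes) of 8 genes in macrophages by decile of class II share over the pooled libraries, 1 line per library, the tenth point being the MHC class II-high macrophages. Cd74, Ciita and Cxcl9 are higher and Spp1 and Top2a lower in the tenth than in the first point in each library, whereas Ccr2 and Hmox1 in the combination do not follow the other libraries and Nos2 climbs there to 1269.8 CPM.

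Cells of other types were looked for, since dendritic cells also carry class II. Flt3, which defines conventional dendritic cells, was at 1.06, 0.116, 0.700 and 0.450 CPM in MHC class II-high macrophages. For reference, 340 cells were gated as dendritic by a Flt3 UMI and a C1q share under 0.05%, which fixes their Flt3 and C1q levels. Their Ciita, at 549.5, 568, 554 and 444 CPM, lay above that of MHC class II-high macrophages in each library. Their Cd74, at 13828, 16640, 14507 and 12668 CPM, lay below the 32500, 33988, 30491 and 33692 CPM of MHC class II-high macrophages. Some dendritic genes were higher in MHC class II-high than in other macrophages. Of 6 conventional dendritic cell markers 2 passed the minimum and both were higher, Itgax, which encodes CD11c, at 1.97, 1.92, 2.16 and 1.95 and Kmo, an enzyme of tryptophan breakdown, at 3.97, 3.04, 6.86 and 4.07. Their summed level was 437, 433, 461 and 382 CPM against 216, 219, 199 and 194 CPM, with Itgax the gene with most UMIs and none at 0. Kmo lay under 10 CPM in other macrophages of each library and passed the minimum only through MHC class II-high macrophages. It had UMIs in 68, 50, 25 and 17 of these cells, and 5 cells held 30.9%, 34%, 61.4% and 68.1% of them. Without cells that had a dendritic marker UMI its mean, 4.51 CPM, was under the minimum. Of 6 type 1 dendritic cell markers 4 passed and Clec9a, a receptor for dead cells, was counted as higher, at 22.9, 42.5, 28.7 and 53.8 against 5.83, 8.57, 2.99 and 14.8 CPM. Other macrophages had less than 10 CPM of it outside the combination, so it too passed the minimum through MHC class II-high macrophages. Cadm1 had the most UMIs of these markers, the sum was 267, 356, 261 and 357 against 201, 245, 186 and 235 CPM, and Xcr1 was at 4.70, 15.2, 9.10 and 12.4 CPM. Of 4 type 2 and monocyte-derived markers 2 passed and Mgl2, a lectin that macrophages also make, was higher at 5.02, 2.01, 7.65 and 2.17, with sums of 265, 201, 263 and 172 against 133, 145, 111 and 151 CPM.

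A UMI of Flt3, Zbtb46, Xcr1, Clec9a, Cd209a or Ccr7 was found in 23.4%, 34.6%, 23.9% and 45.6% of MHC class II-high macrophages, against 11.8%, 16.9%, 7.48% and 25.6% of all macrophages, at unequal depths. Clec9a made up most of this. In cells thinned to 4000 UMIs it was detected in 5.70, 12.3, 7.98 and 14.7% of MHC class II-high and 1.75, 2.74, 1.01 and 5.20% of other macrophages, and Flt3 in 0.475, 0.232, 0 and 0.257% of MHC class II-high macrophages. The 0 of 163 cells with single antibody B allow up to 1.84% when 3 cells are taken as the limit of a count of 0, and up to 2.24% by the exact binomial interval. Ccl17, a ligand of CCR4 that dendritic cells make, had UMIs in 12, 21, 4 and 19 cells, and 5 cells held 90.5%, 77.4% and 94.8% of them in isotype control, single antibody A and the combination. The part of dendritic cells in the ratios of Ccl17, Kmo, Hepacam2, Dcstamp and Ocstamp was not tested beyond leaving out cells with a marker UMI. In the remaining cells the ratios were 8.27, 7.88, 12.8 and 6.02 for Hepacam2, 3.34, 6.17, 10.6 and 3.43 for Dcstamp, 3.98, 4.96, 6.42 and 2.81 for Ocstamp and 4.65, 3.56, 5.03 and 1.19 for Kmo, and those of Ccl17 were 30.9, 28.7, 0.732 and 1.41. Migratory dendritic cell markers summed to 20.0, 23.1, 21.0 and 155 CPM in MHC class II-high and 51.0, 11.1, 18.3 and 37.7 CPM in other macrophages, with Ccl22 the gene with most UMIs and 0, 0, 2 and 0 of the 6 without a UMI. Their sum was thus highest in the combination, where Ccr7, the receptor that guides dendritic cells to lymph nodes, was at 10.7 CPM against 2.42 CPM in isotype control.

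Of the markers of lymphocytes, none of 10 T cell genes and none of 6 NK cell genes passed the minimum. T cell markers summed to 12.7, 13.9, 3.15 and 14.9 CPM in MHC class II-high macrophages, with Cd4, which macrophages can carry, the gene with most UMIs and 2, 0, 8 and 0 of the 10 at 0. NK cell markers summed to 3.64, 4.53, 2.45 and 11.9 CPM, led by Nkg7, and B cell markers to 34.5, 24.3, 12.3 and 24.6 CPM, led by Cd79b. B cells carry class II too. Of their 6 markers 1 passed the minimum, with ratios of 0.781, 1.01, 0.447 and 1.01, and Ms4a1, which encodes CD20, was at 1.06, 0.116, 0 and 2.14 CPM. The part of B cells in the class II levels was not tested. Plasmacytoid dendritic cell markers summed to 93.2, 83.8, 82.6 and 63.8 CPM, nearly all of it Tcf4. Neutrophil markers summed to 275, 203, 185 and 350.4 CPM, led by Csf3r, which was counted as higher at 1.72, 1.67, 1.87 and 1.59, whereas S100a8 was lower. Fibroblast and tumor cell markers summed to 15.3, 13.7, 13.3 and 4.05 CPM, led by Col3a1. The immediate early and heat shock genes had a median ratio of 0.873, 0.880, 1.05 and 0.878 over 8 genes, and Hspa1a, a heat shock protein whose copy Hspa1b may share its reads, was lower, at 182, 73.7, 111 and 64.5 against 545, 456, 453 and 96.9 CPM.

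Shares of cells with a UMI were compared after each cell was thinned to 4000 UMIs, which left out at most 6 MHC class II-high and 78 other macrophages of a library. The background was read from cells gated as T cells (more than 2 Cd3 UMIs, no Csf1r UMI, C1q under 0.02% of UMIs), whose full median depth was 4200, 5532, 4677 and 5829 UMIs. Ciita was detected in 79.8, 75.9, 80.4 and 72.5% of MHC class II-high macrophages, 29.1, 27.9, 17.9 and 34.4% of other macrophages and 1.18, 0.339, 1.39 and 2.86% of T cells. Unthinned, the shares in MHC class II-high and other macrophages were 95.1, 94.7, 96.3 and 93.8% and 47.5, 51.0, 33.5 and 63.4%. The transactivator was thus found in most cells of the set and not in a few. Cxcl9 was detected in 57.5, 80.0, 68.7 and 79.9% against 33.1, 49.9, 27.8 and 69.7%, with 4.71, 3.39, 8.33 and 18.6% of T cells (68.6, 87.1, 77.9 and 92.6% and 46.6, 64.9, 39.8 and 84.8% unthinned). Cd274 was detected in 34.2, 43.2, 41.7 and 77.9% against 29.4, 37.8, 24.5 and 63.9%, with 27.1, 32.2, 29.2 and 30% of T cells, which express it too. Thinned to 2000 UMIs, its share with single antibody A was 24.7% against 27.0%, so that 2 of the genes below and not 3 had the larger share in all 4 libraries.

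Of the 9 genes examined in this way 3 (Ciita, Cxcl9 and Cd274) had the larger share in MHC class II-high macrophages in all 4 libraries and 4 the smaller, with Folr2, Mrc1 and Mki67 among them. Folr2 was detected in 4.04, 8.82, 6.75 and 9.51% against 24.3, 28.3, 37.9 and 28.0%, with 0, 1.02, 0 and 0.714% of T cells. Mki67 was detected in 9.501, 14.2, 6.75 and 12.1% against 24.1, 24.9, 24.5 and 23.9%. Nos2 differed most between libraries, at 8.31, 13.9, 12.3 and 56.0% against 12.2, 19.5, 8.42 and 47.4%, with 2.35, 1.36, 0 and 9.29% of T cells.

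Within the MHC class II-high macrophages the combination stood apart from each other library in a small set of genes. A gene was counted where the combination was at least 2-fold above, or at least 2-fold below, each of the other 3 libraries. Of 8345 genes with a mean of at least 10 CPM over the 4 libraries, 111 were higher (1.33%) and 59 lower (0.707%). Against isotype control alone 185 genes (2.22%) were at least 2-fold higher in the combination and 155 (1.86%) at least 2-fold lower, whereas single antibody A had 19 (0.228%) and 21 (0.252%) and single antibody B 14 (0.168%) and 22 (0.264%). All genes together stood at a median of 0.894 times isotype control in the combination. Median-of-ratios scaling shifted the median log2 ratio by 0.17 and gave 148 higher and 43 lower genes, and 77.5% of the counted genes were then higher instead of 65.3%. Without a minimum level the balance turned, with 192 higher and 263 lower genes (42.2% higher), and at 1.5-fold 253 were counted in each direction. In other macrophages the same rule counted 60 genes as higher (0.703%) and 17 as lower (0.199%) of 8538. The higher genes shared 43 with them, 38.7% of those in MHC class II-high and 71.7% of those in other macrophages, and the lower genes shared 12 (20.3% and 70.6%). The difference between the 2 classes of macrophages was not tested.

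Class II itself was not among them. In MHC class II-high macrophages, whose level the rule set, Cd74 stood at 1.04 (1.03 to 1.04) times isotype control in the combination, against 1.41 (1.41 to 1.42) times in other macrophages. Ciita stood at 0.703 (0.671 to 0.738) times isotype control in MHC class II-high and 1.12 (1.09 to 1.15) times in other macrophages, and H2-DMa at 0.737 (0.710 to 0.765) and 1.00 (0.984 to 1.02) times.

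Of 8 M1-like genes that passed, 5 were counted as higher in the combination, with Nos2, Ptgs2, Egln3 and Clec4e among them, against 4 in other macrophages. The shares over all tested genes were 1.33% in MHC class II-high and 0.703% in other macrophages. Il1b was not counted, at 615, 563, 813 and 779 CPM, and single antibody B had the highest level. Nos2 stood at 72.0, 200.2, 126 and 1269.8 CPM, 17.6 (16.1 to 19.4) times isotype control, and at 96.1, 217, 59.4 and 818 CPM in other macrophages, 8.51 (8.30 to 8.73) times. Single antibody A had the next highest level in both. In MHC class II-high macrophages 5 cells held 53.7%, 56.8%, 64.0% and 16.2% of the Nos2 UMIs, so that the levels outside the combination rest on few cells. Ptgs2, which encodes cyclooxygenase-2, stood at 30.8, 57.6, 24.9 and 179 CPM. Cd274 stood at 145, 207, 181 and 618 CPM and Pdcd1lg2 at 3.71 times isotype control, while Icosl, the ligand of ICOS, was counted as lower, at 109.9, 99.1, 88.9 and 44.3 CPM. Socs1, a feedback inhibitor of cytokine signalling, was the only gene of 22 in the interferon gamma list to be counted, at 121, 139.9, 167 and 341 CPM, and the median of that list was 1.51 times isotype control in MHC class II-high and 2.03 times in other macrophages. Of 7 complement genes 1 was counted as higher and 1 as lower, and C3 was the higher one, at 3.47 times.

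More genes of hypoxia, oxidative stress and lipid were counted in MHC class II-high than in other macrophages, a difference that was not tested. Over all tested genes, the same rule counted 1.33% as higher in MHC class II-high and 0.703% in other macrophages. Of 10 genes of the Spp1 and hypoxia list 4 were higher, with Hilpda, Mmp12 and Adam8 among them, and none in other macrophages, with list medians of 2.13 and 1.11 times isotype control. Of 11 genes of the stress and lipid list 5 were higher (Hmox1, Gpnmb, Fabp5, Cd36 and Plin2) against 1 in other macrophages, with medians of 2.63 and 1.40. Hmox1 stood at 6.43 (6.10 to 6.79) times isotype control, against 1.40 (1.39 to 1.41) times in other macrophages. Cd36, a scavenger receptor for lipids, stood at 26.4, 46.4, 50.8 and 295 CPM, and Fabp5, a fatty acid carrier, at 116, 159.7, 89.6 and 543 CPM. Mmp12 stood at 227, 423, 163 and 1329 CPM. For these 4 genes the combination was at least 2-fold above each other library. Of the Mmp12 UMIs in the combination 5 cells held 43.3%.

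The 10 named higher genes, chosen by their ratio to isotype control, were Atp6v0d2, Inhba, Nos2, Procr, Slpi, Gdf15, Cd36, Ccl22, Sdc1 and Fpr1. Atp6v0d2, a subunit of the vacuolar proton pump, stood at 1.36, 8.02, 1.40 and 51.6 CPM, 37.9 (19.8 to 83.4) times isotype control, from 9 UMIs there. Inhba, which encodes the activin A chain, stood at 1.97, 9.06, 1.05 and 49.2 CPM, and Procr, the protein C receptor, at 14.7, 41.6, 20.3 and 249.7 CPM. Procr had UMIs in 69.2% of cells in the combination, so that its level did not rest on a few of them. Slpi, a protease inhibitor, stood at 6.52, 7.44, 4.202 and 87.3 CPM, Gdf15, a stress-induced cytokine, at 5.15, 1.98, 0.350 and 60.5 CPM, Sdc1, syndecan-1, at 15.3, 18.5, 40.6 and 150.4 CPM and Fpr1, a formyl peptide receptor, at 5.30, 11.0, 16.1 and 48.0 CPM. In the combination 5 cells held 41.6% of the Atp6v0d2, 48.3% of the Inhba, 54.4% of the Slpi and 70.3% of the Gdf15 UMIs, so that these levels rest on few cells. Atp6v0d2, Inhba, Slpi and Gdf15 lay under 10 CPM in each other library. They passed the minimum only through the combination, so their counts are a description. Ccl22, a ligand of CCR4, stood at 9.70, 6.04, 17.2 and 102 CPM, but 5 cells held 94.0% of its UMIs in the combination. Without cells that carried a dendritic marker UMI its log2 ratio to isotype control was -0.53, so the value rests on such cells. Of the migratory dendritic cell markers, Ccl22 and Il4i1 passed the minimum and were counted as higher in the combination, and none was in other macrophages. Il4i1, an enzyme that oxidises amino acids, stood at 5.61, 9.29, 1.05 and 32.3 CPM. With each other library under 10 CPM, it passed the minimum only through the combination, so its count is a description. The part of dendritic cells in the other genes of the combination was not tested beyond leaving out cells with a marker UMI. Without those cells 104 genes were higher and 60 lower in the combination, 83 and 43 of them shared with the main counts.

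Among the 10 named lower genes was Ccr2, which stood at 1099, 675, 900.3 and 231 CPM, 0.210 (0.20 to 0.221) times isotype control, and at 610.1, 371, 476 and 222 CPM in other macrophages, 0.364 (0.358 to 0.371) times. The others were Hspb1, a small heat shock protein with 1 UMI in the combination and UMIs in 11, 5 and 3 cells of the other libraries, at 19.7, 9.64, 12.6 and 0.113 CPM, Slco2b1, an organic anion transporter, at 15, 23.1, 10.2 and 0.900 CPM, Hpgd, which breaks down prostaglandins, Klrd1, Pxdc1, Ramp1, Tnfsf8, Lyl1 and Gpr183. Lyl1, a transcription factor, stood at 117, 91.4, 78.4 and 26.2 CPM and Gpr183, a receptor for oxysterols, at 72.9, 43.3, 62.3 and 16.99 CPM. Hpgd, Klrd1, Pxdc1, Ramp1 and Tnfsf8 lay under 25 CPM in each library. Without cells that had a dendritic marker UMI, Hspb1 and Hpgd were less than 2-fold below at least 1 library, at log2 ratios to isotype control of -1.66 and -2.35, and Klrd1 was under the minimum, at -0.92.

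**Figure D5:**
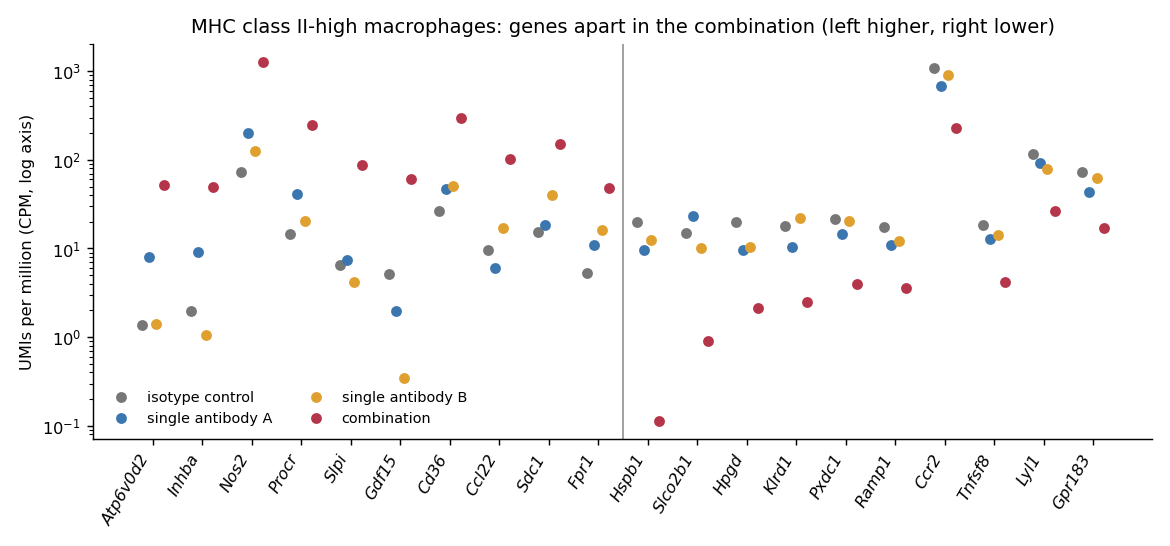
Levels (CPM, logarithmic axis) in MHC class II-high macrophages of the 10 genes named as higher (left of the line) and the 10 named as lower (right) in the combination, 1 point per library. The combination lies above the other 3 libraries at the left, with Nos2 at 1269.8 CPM, and below them at the right, with Ccr2 at 231 CPM; Hspb1 rests there on 1 UMI.

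The MHC class II-high macrophages were not uniform. Among 7223 genes with a mean of at least 0.05 UMIs per cell thinned to 4000 UMIs, the variance over the mean across cells had a median of 1.07, 1.06, 1.06 and 1.08. Apoe, an apolipoprotein, had a variance over mean of 55.6, 52.3, 58.2 and 40.1. Ccl5 had 52.0, 25.1, 16.2 and 30.8 and Fn1, which encodes fibronectin, 26.6, 14.9, 22.5 and 43.2. Fth1, the ferritin heavy chain that stores iron, had 13.6, 15.97, 15.8 and 44.8. This value was largest in the combination, where its level was also highest, at 6290.1, 7128, 8668 and 19802 CPM. The part of the level in that value was not tested.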

How the data were processed

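The authors deposited UMI counts of 19059 genes in 4 matrices, 1 per group, made with Cell Ranger 7.0.0 on mm10 per the submitters' processing notes (the matrix headers name a later release) and without normalization. The authors removed doublets with DoubletFinder and worked in Seurat, and the methods describe a rank sum test for cluster markers and elsewhere state that these data had no statistical analysis; none of these steps was repeated, and doublets were not removed in the main values. UMIs were summed over the cells of a class and library and divided by the total per 1000000. Genes with a mean of at least 10 CPM were compared within each library (1.5-fold) and between libraries (2-fold). The named genes were those of the lists by role and, beyond them, the 12 higher and 12 lower with the most extreme ratio in the least extreme library and the 10 higher and 10 lower in the combination by ratio to isotype control. The cells and the lists were chosen with earlier results of these data known, and the dendritic and T cell gates after the data were seen. Alternatives were a doublet score (Scrublet), cells without dendritic UMIs, other limits on cells, on class II share and on levels, other scalings, thinning to 2000 or 4000 UMIs, a random split of the UMIs and, added after the data were seen, cells in unshared droplets, single antibody B left out and equal numbers of cells. Ly6c2 and H2-Ea were not analysed here, and some members of the lists are not reported here by name. Python 3.11.15, NumPy 2.4.6, SciPy 1.17.1, pandas 2.3.3 and scanpy 1.11.5 were used, and the computations were checked on simulated counts.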

Additional observations from a re-analysis of the deposited data

Results flagged for a closer look

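For 4 of the genes of the lists and named genes the ratio of MHC class II-high to other macrophages was at least 1.5-fold above 1 in 1 library and at least 1.5-fold below 1 in another, beyond counting error, and the difference between libraries was not tested. Ccl24, an eotaxin-type chemokine, had ratios of 0.666, 2.51, 0.306 and 0.505, and in MHC class II-high macrophages 5 cells held 75.6%, 79.3% and 84.4% of its UMIs in isotype control, single antibody A and the combination, while 2 cells held all of them with single antibody B. Plac8, a gene of monocytes, had ratios of 0.807, 0.881, 1.62 and 0.644. Gdf15 had ratios of 0.304, 0.0614, 0.0243 and 2.00, the third of which rests on 1 UMI. Sdc1 had ratios of 0.423, 0.514, 1.18 and 1.60, with an interval above 1 in the combination and one that includes 1 with single antibody B. With 1 library per group no sample could be set against others of its group.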

How the results depend on the processing

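No paired analysis was possible because each group had 1 library. The share of MHC class II-high macrophages with single antibody B stayed between 0.310 (top 5%) and 0.433 (top 20%) times isotype control over the alternatives tried, and that of the combination between 0.978 (top 5%) and 1.21 (top 20%), on either side of 1. The ratio for single antibody A was 1.07 without cells that had a dendritic marker UMI. The 80 higher and 323 lower genes became 157 and 547 without a minimum level, 37 and 108 at a mean of 50 CPM, and 30 and 153 at 2-fold, and median-of-ratios scaling gave 147 higher genes. The 111 and 59 genes of the combination became 192 and 263 without a minimum, 61 and 23 at 50 CPM, and 253 and 253 at 1.5-fold. With equal numbers of cells at 4000 UMIs, 80 genes were higher and 248 lower, 57 and 205 of them shared with the main counts. Without cells that had a dendritic marker UMI, 75 genes were higher and 306 lower within libraries, 57 and 277 of them shared with the main counts. Of the named genes with a finite ratio, 25 values within libraries and 26 of the combination lost their count under an alternative. In addition 1 reversed, Ccl22, whose log2 ratio was -0.53 without cells that had a dendritic marker UMI. Clec9a without those cells and Hspb1 in the top 5% had no finite ratio. They also lost their count and are not part of these numbers. In the top 5%, Slco2b1 and Hpgd fell under the minimum at log2 ratios of -3.72 and -4.42, as did Hspb1 with no UMI in the combination, and Ramp1 and Gpr183 missed 2-fold against single antibody A or B at -2.03 and -1.75, while in cells of unshared droplets Kmo and Hspb1 fell under the minimum at 1.76 and -6.21 and Ccl22 missed 2-fold against single antibody B at 3.43. Thinned to 2000 UMIs, 2 genes and not 3 had a larger share in all 4 libraries. The causes of other changes were not tested. Single antibody B had the fewest MHC class II-high macrophages, 163, so that a share of 0 there allows up to 1.84% with 3 cells as the limit and up to 2.24% by the exact binomial interval.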

Other observations

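The letters of the Y box were found in 22% of the promoters of lower genes (54 of 245), against 10.5% of those of higher genes (6 of 57) and 11.7% of those of all tested genes, and none of the lower genes held the X and Y pair. Retnla, which encodes a secreted resistin-like protein, was found in 3, 10, 1 and 13 MHC class II-high macrophages only, yet at 46.7, 407, 31.2 and 104 CPM. B2m, the light chain of class I, stood at 1214, 2628, 2511 and 3808 CPM in MHC class II-high and 1025, 2263, 2004 and 3273 CPM in other macrophages, so that isotype control lay apart from the other 3 libraries in both classes, while H2-K1 stood at 1048, 1214, 1011 and 1586 CPM.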
